A study of Homo sapiens with 6 samples.

Results

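The phase II conjugation enzymes examined here are the glutathione S-transferase (GST), UDP-glucuronosyltransferase (UGT1 and UGT2) and sulfotransferase (SULT) genes. They were chosen by symbol alone, as every row of the gene table whose name starts with GST followed by a class letter and a digit, with UGT1A, UGT2A or UGT2B, or with SULT and a digit. The rule gave 49 of 20030 genes, namely 17 GST, 19 UGT and 13 SULT genes. Their mRNA levels were compared between control and KIF11-depleted HepG2 cells, an established human hepatoma cell line. The sh-ctrl group held 3 libraries of HepG2 cells infected with lentivirus carrying a control shRNA, and the sh-KIF11 group held 3 libraries of HepG2 cells infected with lentivirus carrying an shRNA against KIF11, the kinesin motor that separates spindle poles in mitosis. All libraries thus came from 1 line that had been through lentiviral infection, and the labels name no time after infection and no second shRNA. The sources used here do not state whether the libraries of a group came from separate cultures, so p-values measure the spread between these libraries, which may be technical.

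Phase II enzymes attach a polar group to a drug, hormone, bile pigment or reactive metabolite, after which the conjugate can be exported from the cell. GST enzymes use glutathione, UGT enzymes use UDP-glucuronic acid, and SULT enzymes use the sulfate donor PAPS. Hepatocytes carry most of this capacity in the body, and the genes respond to liver-enriched factors such as HNF4A and to ligand- or stress-activated factors such as AHR, NR1I2 (the pregnane X receptor) and NFE2L2 (NRF2).

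Total counts were between 18167773 and 19583282 per library, and 3 counts in a library corresponded to between 0.145 and 0.178 CPM. KIF11 itself had 111, 116 and 121 CPM in the sh-ctrl libraries and 72.1, 71.4 and 62.8 CPM in the sh-KIF11 libraries. It was lower in all 3 knockdown libraries, at 0.595 of the control mean (log2 fold change -0.75 ± 0.06 SE). The hepatocyte markers were abundant in every library, which fits the labelled cell type, but 9 of 10 were lower after knockdown, with summed levels of 36051 to 37771 CPM in sh-ctrl against 15586 to 16885 CPM in sh-KIF11. Of 5 cholangiocyte markers, KRT19 rose (131 to 663 CPM on average, log2 fold change 2.34 ± 0.06) and SOX9 and SPP1 fell, with summed levels of 933 to 1035 CPM in sh-ctrl against 1247 to 1413 CPM in sh-KIF11. Among 6 immune markers, the leukocyte genes PTPRC, CD3E and MS4A1 had at most 3 counts in any library, MS4A1 none at all, and the summed level (2480 to 2976 against 505 to 636 CPM) was nearly all LYZ, with CD68 next. The fibroblast list summed to between 2.55 and 3.93 CPM in sh-ctrl against between 1.40 and 2.04 CPM in sh-KIF11, and the endothelial list to between 3.16 and 3.55 CPM and between 4.68 and 4.98 CPM, with DCN and TEK at 0 in all libraries. The part of these shifts in the results for the conjugation enzymes was not tested. In bulk RNA, fewer cells of a kind and less RNA per cell cannot be told apart.

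Of the 49 genes, 29 passed the filter on low counts, of which 12 were GST, 9 UGT and 8 SULT genes. The filter asks for enough counts in as many libraries as a group holds, so a gene low in either group can enter through the other. Of the other 20, 18 had under 10 counts in every library, and 5 of these had 0 in all of them. Levels are given as CPM, counts scaled to library size with TMM factors, and changes as log2 fold changes of sh-KIF11 minus sh-ctrl with their SE. The quasi-likelihood test of edgeR gave the p-values, which were adjusted after Benjamini and Hochberg over all 12369 tested genes, and a gene is called higher or lower where the adjusted p is under 0.05. At this threshold 10 of the 29 were higher and 12 were lower in sh-KIF11. Among all tested genes 34.4% were called higher and 34.7% lower, so neither share (34.5% and 41.4%) was far from the background. Libraries of sh-ctrl and sh-KIF11 were fully separated for 21 of the 29, where 71.2% of all tested genes were. The median log2 fold change was -0.05 over the 29 genes and 0.00 over all tested genes. With library totals alone in place of TMM, the median of all tested genes was 0.23, 73.6% of all calls were higher (49.8% with TMM), and 13 of the 29 were higher and 6 lower. On the log2(FPKM + 1) scale with limma 68.5% of all calls were higher, and 12 of the 29 were higher and 10 lower. Each family thus held genes that changed in both directions. By enzyme class, summed GSTA, GSTT, UGT1A and minor SULT1 transcripts were higher, and summed GSTM, other GST, UGT2A, UGT2B, SULT1A and SULT2 transcripts were lower. In the other GST class only GSTO1 was called lower, while GSTO2 and GSTP1 were called higher and GSTK1 and GSTZ1 were not called. The UGT2A sum was nearly all UGT2A3, the SULT2 sum nearly all SULT2A1, and the minor SULT1 rise mostly SULT1C4. Transcripts of the 2 GSTT genes counted, GSTT2B and GSTT4, were few, at 1.10 CPM in sh-ctrl against 1.42 CPM in sh-KIF11 on average. Of these, GSTT2B rose, while GSTT4, not tested, had fewer counts after knockdown.

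**Figure D1:**
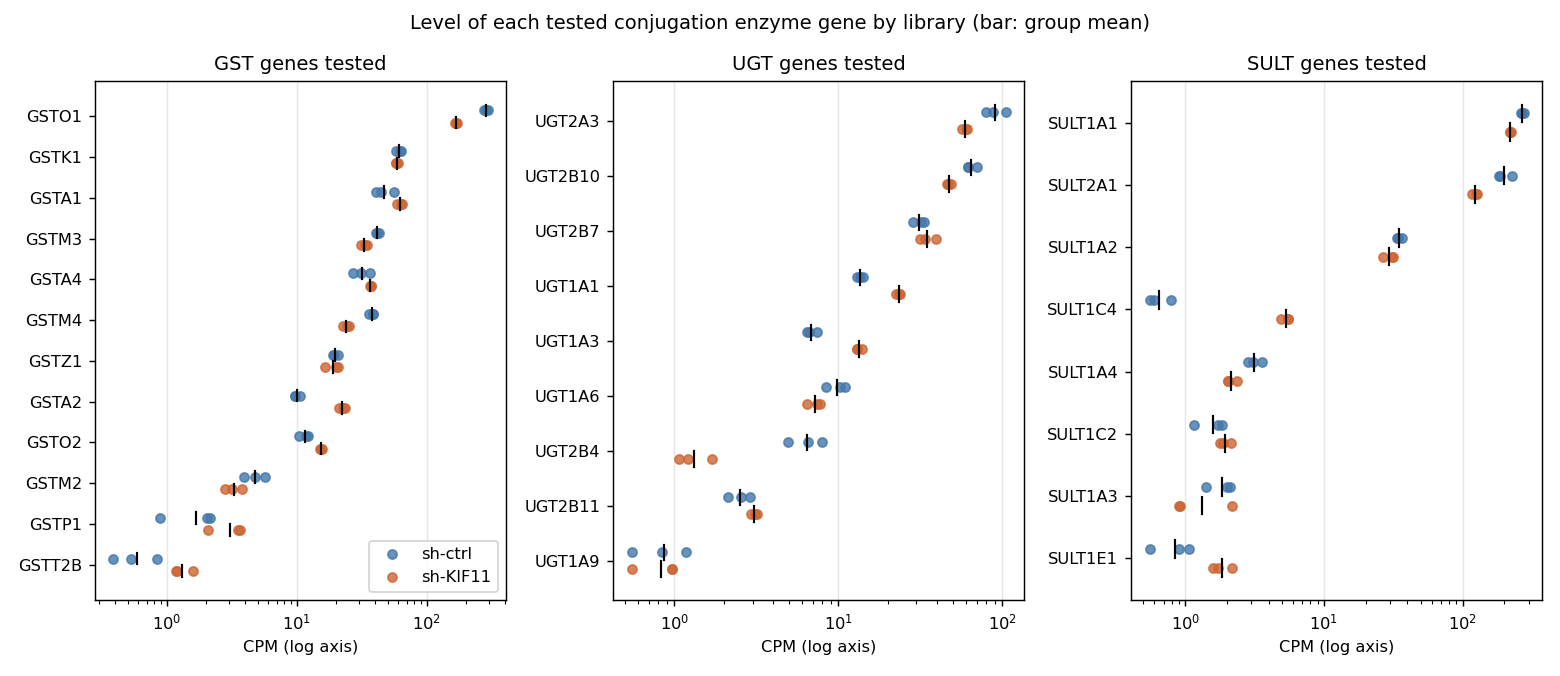
Level of each tested gene in every library, in CPM on a log axis, with 1 panel per family, genes ordered by mean level, points for libraries and a bar for the group mean. SULT1C4 and UGT2B4 show the widest gaps between groups, while GSTK1, GSTZ1 and UGT1A9 overlap.

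Over all members of a family, GST transcripts had 554 ± 17.9 CPM (SD, n = 3) in sh-ctrl against 448 ± 6.44 CPM in sh-KIF11, UGT transcripts 227 ± 20.04 and 191 ± 4.06 CPM, and SULT transcripts 511 ± 22.7 and 387 ± 5.67 CPM. With TMM the family sums were thus lower after knockdown, at 0.809, 0.841 and 0.756 of the control mean. GSTO1 alone went from 285 CPM in sh-ctrl to 168 CPM in sh-KIF11 on average, a larger drop than that of the GST sum. Of 12 tested GST genes, 6 were higher (50%, where 34.4% of all tested genes were). The GST and SULT sums were also lower, without overlap, with library totals alone (0.949 and 0.887) and in FPKM (0.845 and 0.800). The direction of the UGT sum depended on the measure, since the ratio was 0.987 with library totals alone and 1.08 in FPKM, with overlapping groups in both (197 to 231 against 204 to 213 CPM, and 91.6 to 101 against 100.4 to 105 FPKM). Within the families, the GSTA sum was 1.37 times and the UGT1A sum 1.44 times the control mean. The GSTM sum was 0.717, the UGT2A sum 0.653, the UGT2B sum 0.826, the SULT1A sum 0.821 and the SULT2 sum 0.621 of it. For each of the 10 class sums, all sh-KIF11 libraries lay on the same side of all sh-ctrl libraries with TMM and in FPKM. With library totals alone this held for 9, the exception being the UGT2B sum, whose ratio was then 0.969 with overlapping groups. With 3 libraries against 3, an exact permutation test cannot give a two-sided p below 0.1, so the sums are described without a test.

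**Figure D2:**
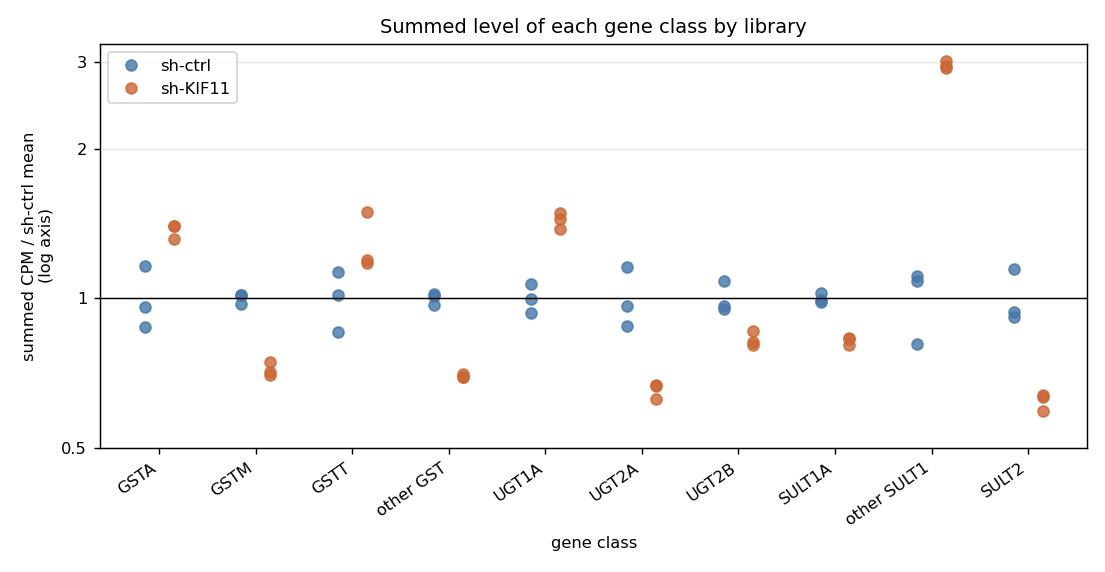
Summed CPM of each gene class in every library, divided by the sh-ctrl mean of that class, on a log axis with points for libraries. The sh-KIF11 points lie above the sh-ctrl points for GSTA, GSTT, UGT1A and other SULT1 genes and below them for the other 6 classes.

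The alpha class GSTs are abundant liver enzymes that conjugate glutathione to electrophiles and reduce lipid hydroperoxides. GSTA1 and GSTA2 are neighbours on chromosome 6 (chr6:52791664-52803910 and chr6:52750089-52763569, minus strand, GRCh38), and their RefSeq upstream windows (GRCh38.p14) are shown because these near-copies moved by different amounts. Each line gives the 250 bases before the start that RefSeq annotates, 5′ to 3′ on the gene's strand (chr6:52803817-52804066 for GSTA1 and chr6:52763476-52763725 for GSTA2), with capitals marking the 7 positions at which the windows differ. The gene spans come from GENCODE, which places both starts farther upstream, so 94 bases of each window lie inside the gene as GENCODE draws it.
GSTA1: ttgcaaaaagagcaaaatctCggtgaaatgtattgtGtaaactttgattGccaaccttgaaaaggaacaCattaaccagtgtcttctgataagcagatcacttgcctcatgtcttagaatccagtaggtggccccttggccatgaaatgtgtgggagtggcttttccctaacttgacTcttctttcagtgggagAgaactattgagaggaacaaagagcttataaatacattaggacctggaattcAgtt
GSTA2: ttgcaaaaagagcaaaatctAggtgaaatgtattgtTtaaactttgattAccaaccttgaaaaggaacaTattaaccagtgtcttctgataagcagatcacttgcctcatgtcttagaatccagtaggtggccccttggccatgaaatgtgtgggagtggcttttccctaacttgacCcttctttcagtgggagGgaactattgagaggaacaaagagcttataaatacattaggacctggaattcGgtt
In a global alignment 243 of 250 positions were identical, which is 97.2%. Neither window held the antioxidant response element core TGACNNNGC or the AHR and ARNT core GCGTG on either strand.

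GSTA1 had 40.6, 44.3 and 55.7 CPM in the sh-ctrl libraries and 59.0, 64.2 and 63.8 CPM in the sh-KIF11 libraries. The groups did not overlap, although the highest control library came close to the lowest knockdown library, and the log2 fold change was 0.41 ± 0.08 (adjusted p = 7.16e-06). GSTA2 had 9.75, 9.69 and 10.7 CPM in sh-ctrl against 21.0, 22.6 and 23.3 CPM in sh-KIF11. All knockdown libraries were far above all controls, with a log2 fold change of 1.15 ± 0.10 (adjusted p = 4.63e-14). GSTA2 therefore made up 11.4% ± 1.10 (SD, n = 3) of GSTA counts in sh-ctrl against 18.3% ± 0.392 in sh-KIF11, while the share of GSTA1 was 52.8% ± 1.19 and 51.3% ± 0.536. Windows of 150 bases, the read length, were shared with the other gene for 6.90% of the GSTA1 transcript and 5.15% of the GSTA2 transcript, so most of each could be told apart by sequence. GSTA4, which clears the lipid peroxidation product hydroxynonenal, had 27.2, 31.3 and 36.5 CPM in sh-ctrl against 36.4, 37.3 and 36.9 CPM in sh-KIF11. The highest control library lay within the knockdown range, and the log2 fold change of 0.22 ± 0.08 (adjusted p = 0.0161) was lost without sh-ctrl replicate 1 (0.13, adjusted p = 0.166). It was also lost, at 0.21 with an adjusted p of 0.0506, without sh-KIF11 replicate 2. GSTA3 and GSTA5 had at most 1 count in any library.

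The mu class genes, which form a cluster on chromosome 1 and conjugate many electrophiles, went the other way. GSTM4 had 38.7, 38.9 and 36.0 CPM in sh-ctrl against 25.4, 22.6 and 24.3 CPM in sh-KIF11. All knockdown libraries were lower, by -0.65 ± 0.08 on the log2 scale (adjusted p = 6.53e-10). GSTM3 had 42.8, 41.0 and 41.3 CPM in sh-ctrl against 31.3, 33.7 and 34.5 CPM in sh-KIF11. The groups did not overlap, and the log2 fold change was -0.33 ± 0.07 (adjusted p = 9.96e-05), but library totals alone (-0.10, adjusted p = 0.209) and limma on both FPKM scales (adjusted p = 0.0808 and 0.0769) ended the call. GSTM2 had 3.92, 5.65 and 4.74 CPM in sh-ctrl against 3.19, 2.80 and 3.80 CPM in sh-KIF11. Its lowest control library lay just above its highest knockdown library, and the log2 fold change of -0.55 ± 0.19 (adjusted p = 0.00886) was lost without sh-ctrl replicate 2 (-0.40, adjusted p = 0.0885) and without sh-KIF11 replicate 2 (-0.45, adjusted p = 0.0587), and also with library totals alone (-0.32, adjusted p = 0.121). Of the GSTM2 transcript, 34.7% of the windows were shared with GSTM1 or GSTM4. GSTM1 had at most 2 counts in any library and GSTM5 had 0 in all, so HepG2 cells here expressed 3 of the 5 mu class genes above the filter.

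The omega class enzyme GSTO1, which reduces dehydroascorbate and arsenic species, was the most abundant member per length, at 195 ± 5.41 FPKM in sh-ctrl against 130 ± 3.57 FPKM in sh-KIF11 (SD, n = 3). Its counts gave 287, 275 and 294 CPM in sh-ctrl against 167, 171 and 166 CPM in sh-KIF11. The groups lay far apart, with a log2 fold change of -0.76 ± 0.05 (adjusted p = 1.82e-17). Its neighbour GSTO2 had 11.8, 12.2 and 10.4 CPM in sh-ctrl against 15.7, 15.4 and 15.2 CPM in sh-KIF11. All knockdown libraries were higher, by 0.42 ± 0.10 (log2, adjusted p = 0.000267), so the adjacent omega genes on chromosome 10 changed in opposite directions. GSTP1, the pi class enzyme that normal hepatocytes nearly lack, had 2.13, 2.05 and 0.888 CPM in sh-ctrl against 3.54, 2.08 and 3.65 CPM in sh-KIF11. The groups overlapped, and the log2 fold change of 0.85 ± 0.26 (adjusted p = 0.00434) was lost without sh-ctrl replicate 3 (0.56, adjusted p = 0.0620).

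GSTT2B, a theta class gene, had 15, 7 and 9 counts in sh-ctrl against 24, 33 and 23 counts in sh-KIF11. The groups did not overlap, and the log2 fold change was 1.16 ± 0.36 (adjusted p = 0.0045), but 68.4% of its windows were shared with its copy GSTT2, so reads of these genes may have been split or left out. GSTT2B also entered the test only through its sh-KIF11 counts. GSTT4, the other theta gene among the members, was not tested and had 5, 10 and 12 counts in sh-ctrl against 2, 1 and 3 in sh-KIF11. The theta genes GSTT1 and GSTT2 were not among the genes counted. GSTK1, the kappa class enzyme of mitochondria and peroxisomes, had 62.5, 58.0 and 63.3 CPM in sh-ctrl against 59.9, 57.9 and 57.9 CPM in sh-KIF11. Its groups overlapped (log2 fold change -0.06 ± 0.06, adjusted p = 0.349), and with library totals alone the sign turned, to 0.17 (adjusted p = 0.0150). GSTZ1, which acts in tyrosine breakdown, had 19.1, 20.8 and 19.2 CPM in sh-ctrl against 16.4, 19.99 and 20.9 CPM in sh-KIF11. These values overlapped too (log2 fold change -0.05 ± 0.09, adjusted p = 0.664), with a positive sign under library totals alone (0.18). In the annotation GSTZ1 overlaps POMT2, GSTK1 overlaps AC073342.1 and GSTM3 overlaps GSTM5, each on the opposite strand, and whether counting used strand is not given in the sources used here. GSTM2 overlaps both GSTM1 and GSTM4 on the same strand, where strand cannot separate reads. Over the family, 6 of 12 tested GST genes rose, 4 fell and 2 did not pass the test, with a median log2 fold change of 0.09. The shares were 50% higher and 33.3% lower, where 34.4% of all tested genes were higher and 34.7% lower.

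**Figure D3:**
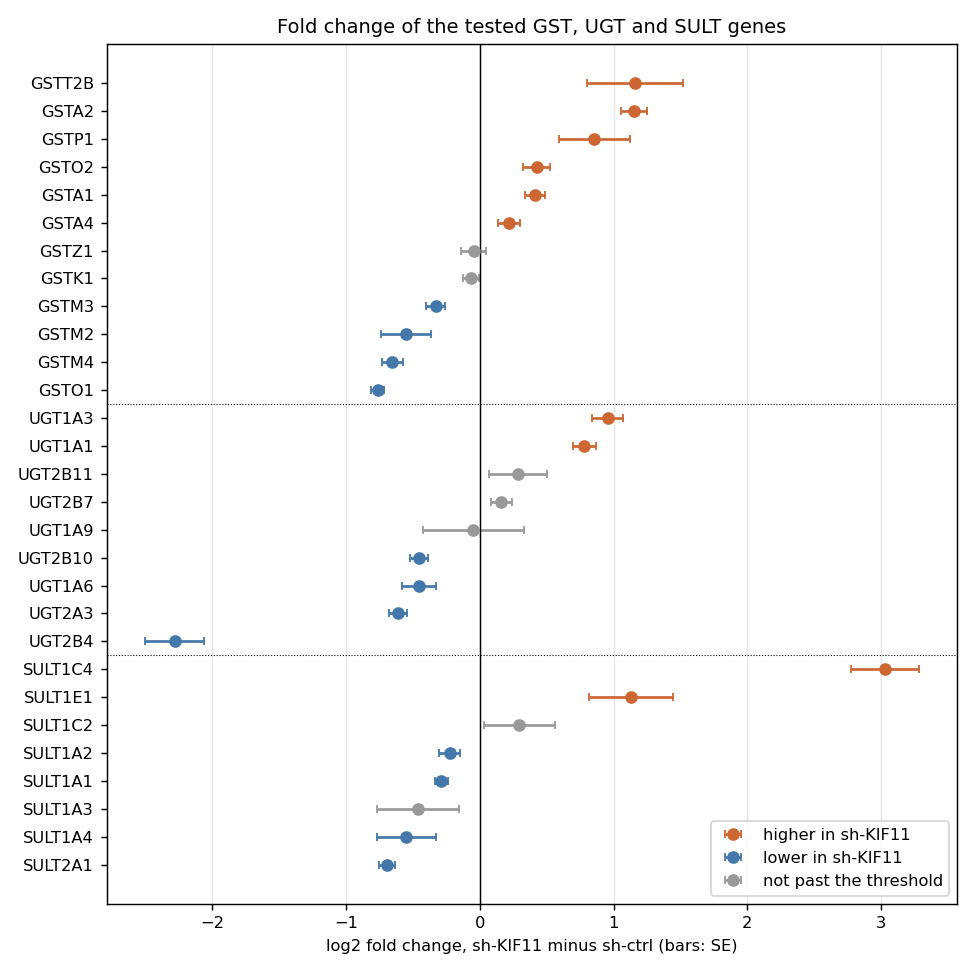
Log2 fold change of the 29 tested genes, sh-KIF11 minus sh-ctrl, with bars for the SE, grouped by family from GST at the top to SULT at the bottom and coloured by call. SULT1C4 at 3.03 and UGT2B4 at -2.28 stand farthest from 0, and each family holds genes on both sides.

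The UGT1A genes lie on chromosome 2 as alternative first exons spliced to common last exons, so each enzyme has its own start site and substrate-binding part. UGT1A1 (chr2:233760248-233773299, plus strand, GRCh38) is the enzyme that glucuronidates bilirubin, and UGT1A3 (chr2:233729108-233773299) acts on bile acids and drugs. Their upstream windows are shown because they are the UGT genes that rose, each with its own start site. As above, 250 bases before the RefSeq start are given 5′ to 3′ (chr2:233760020-233760269 for UGT1A1 and chr2:233728792-233729041 for UGT1A3), with no part in capitals. Of the UGT1A1 window 22 bases lie inside the GENCODE gene, and of the UGT1A3 window 0.
UGT1A1: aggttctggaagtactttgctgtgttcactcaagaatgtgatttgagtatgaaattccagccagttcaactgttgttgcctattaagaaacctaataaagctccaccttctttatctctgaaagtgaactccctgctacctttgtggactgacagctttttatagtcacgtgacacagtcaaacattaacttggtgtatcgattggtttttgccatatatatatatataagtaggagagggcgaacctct
UGT1A3: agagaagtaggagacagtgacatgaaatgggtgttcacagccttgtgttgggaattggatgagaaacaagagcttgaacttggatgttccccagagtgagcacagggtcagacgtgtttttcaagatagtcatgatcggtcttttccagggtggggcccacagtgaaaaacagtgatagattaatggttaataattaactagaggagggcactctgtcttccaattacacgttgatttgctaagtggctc
Neither of these 250-base windows held the antioxidant element core or the AHR core. Including the 50 bases after the start, the antioxidant element core on either strand was in 4687 of 35116 RefSeq windows (13.3%) and the AHR core in 12832 (36.5%). Windows were found for 41 of the 49 genes, 43 in all, of which 10 held the antioxidant element core and 13 held the AHR core. The UGT1A3 window is among these 13, with the AHR core in the 50 bases after the start.

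UGT1A1 had 14.1, 13.5 and 13.1 CPM in the sh-ctrl libraries and 22.7, 24.0 and 23.4 CPM in the sh-KIF11 libraries. The groups were well separated, with a log2 fold change of 0.78 ± 0.09 (adjusted p = 2.45e-10). UGT1A3 had 7.45, 6.48 and 6.63 CPM in sh-ctrl against 13.0, 13.96 and 13.0 CPM in sh-KIF11. Here too all knockdown libraries were above all controls, by 0.96 ± 0.12 (log2, adjusted p = 1.32e-09). UGT1A6, which prefers small planar phenols, had 10.9, 8.47 and 10.2 CPM in sh-ctrl against 6.43, 7.44 and 7.70 CPM in sh-KIF11. It was lower in every knockdown library, at -0.46 ± 0.13 (log2, adjusted p = 0.00166), although library totals alone ended this call (-0.23, adjusted p = 0.106). UGT1A9 had between 10 and 20 counts in every library, with the groups overlapping (log2 fold change -0.05 ± 0.37, adjusted p = 0.918), and the sign varied with the settings (-0.28 to 0.31).

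Shares of the counts within the locus do not depend on how the libraries were scaled. UGT1A6 held 32.5%, 28.8% and 32.6% of UGT1A counts in sh-ctrl against 14.8%, 15.9% and 16.9% in sh-KIF11. The shares of UGT1A1 (43.2% ± 2.40 to 51.6% ± 0.612, SD, n = 3) and UGT1A3 (21.8% ± 0.586 to 29.4% ± 0.790) were higher, without overlap. Of the UGT1A3 transcript 72.8% of 150-base windows were shared with other UGT1A genes, of UGT1A6 57.3% and of UGT1A1 32.2%. How reads of the common exons were counted is not given in the sources used here, so the counts of single UGT1A genes are uncertain in level. UGT1A4, UGT1A5, UGT1A7, UGT1A8 and UGT1A10 had at most 7 counts in any library and were not tested.

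**Figure D4:**
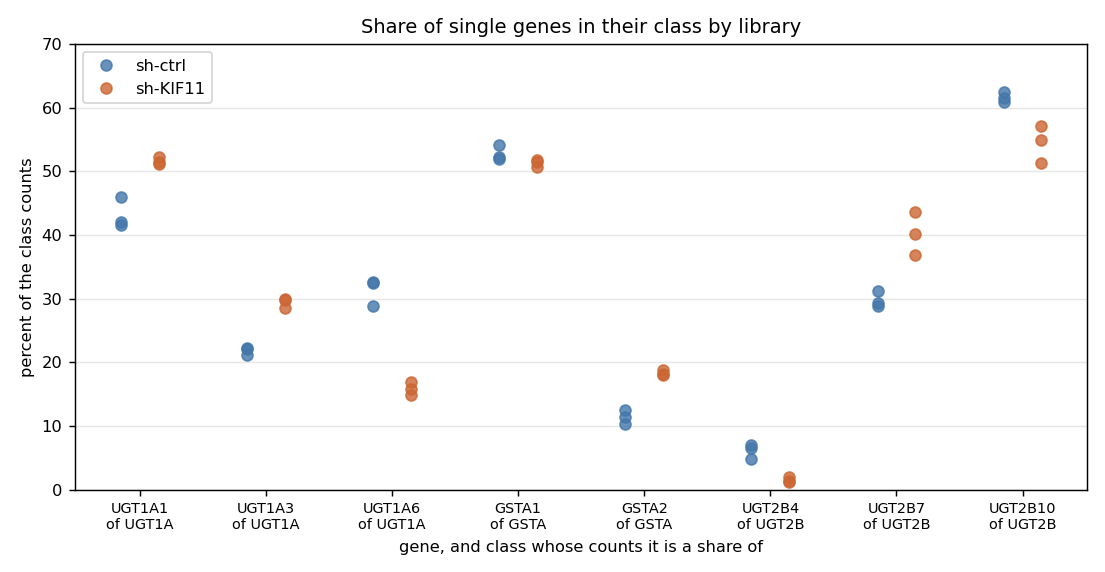
Percent of the counts of its class that each of 8 genes held in every library, with points for libraries. UGT1A6 falls from about the level of 31.3% to 15.9% of UGT1A counts on average, UGT2B4 from 6.13% to 1.53% of UGT2B counts, and GSTA2 rises from 11.4% to 18.3% of GSTA counts.

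The UGT2 genes on chromosome 4 glucuronidate steroids, bile acids and drugs. UGT2B4, an enzyme of bile acid glucuronidation, had 6.56, 4.93 and 7.94 CPM in sh-ctrl against 1.69, 1.06 and 1.22 CPM in sh-KIF11. All knockdown libraries were far lower, at 0.206 of the control mean, with a log2 fold change of -2.28 ± 0.22 (adjusted p = 3.35e-12), the largest fall of any tested member. In the annotation UGT2B4 overlaps UGT2A3P7 on the same strand. UGT2A3 had 79.8, 87.7 and 105 CPM in sh-ctrl against 60.8, 56.8 and 60.2 CPM in sh-KIF11. Its groups did not overlap and the log2 fold change was -0.62 ± 0.07 (adjusted p = 1.15e-10). UGT2B10, which glucuronidates nicotine and tertiary amines at nitrogen, had 62.3, 61.9 and 70.01 CPM in sh-ctrl against 49.0, 46.5 and 46.3 CPM in sh-KIF11. It was lower in every knockdown library, by -0.45 ± 0.06 on the log2 scale (adjusted p = 6.26e-08).

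UGT2B7, the enzyme known for morphine glucuronidation, did not share this fall. It had 28.8, 31.8 and 33.3 CPM in sh-ctrl against 31.6, 34.0 and 39.4 CPM in sh-KIF11. The groups overlapped and the log2 fold change of 0.16 ± 0.08 missed the threshold (adjusted p = 0.0742), but it passed under 7 of 15 other settings, for example without sh-ctrl replicate 3 (0.21, adjusted p = 0.0229) or without sh-KIF11 replicate 1 (0.23, adjusted p = 0.0241). Within UGT2B counts, UGT2B7 held 29.8% ± 1.31 in sh-ctrl against 40.2% ± 3.41 in sh-KIF11, UGT2B10 61.6% ± 0.761 and 54.4% ± 2.94, and UGT2B4 6.13% ± 1.13 and 1.53% ± 0.392 (SD, n = 3). These shares did not overlap between groups. UGT2B11 had 2.13, 2.88 and 2.55 CPM in sh-ctrl against 3.19, 2.95 and 3.09 CPM in sh-KIF11. All 3 knockdown libraries were above the controls, but the log2 fold change of 0.29 ± 0.21 missed the threshold (adjusted p = 0.235), while it passed with library totals alone (0.52, adjusted p = 0.0295) and with limma on both FPKM scales (adjusted p = 0.00726 and 0.0107). UGT2A1, UGT2A2, UGT2B15, UGT2B17 and UGT2B28 had at most 5 counts in any library. Of 9 tested UGT genes 2 rose, 4 fell and 3 did not pass the test, with a median log2 fold change of -0.05. The shares were 22.2% higher and 44.4% lower, where 34.4% of all tested genes were higher and 34.7% lower.

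Among the sulfotransferases, SULT2A1, the liver and adrenal enzyme that sulfates DHEA and bile acids, had 186, 182 and 228 CPM in sh-ctrl against 126, 125 and 118 CPM in sh-KIF11. All knockdown libraries were lower, with a log2 fold change of -0.69 ± 0.06 (adjusted p = 1.99e-13). SULT1A1, the main hepatic phenol sulfotransferase, had 276, 268 and 264 CPM in sh-ctrl against 222, 218 and 221 CPM in sh-KIF11. The groups did not overlap at a log2 fold change of -0.29 ± 0.05 (adjusted p = 1.29e-06), yet library totals alone left -0.06 (adjusted p = 0.278). SULT1A2, its close relative, had 36.4, 33.7 and 34.0 CPM in sh-ctrl against 31.4, 26.8 and 30.9 CPM in sh-KIF11. Its fall of -0.23 ± 0.08 (log2, adjusted p = 0.00908) was small beside the effect of scaling, since library totals alone gave 0.00357, and it was lost in 5 of 15 other settings, among them upper-quartile factors (-0.15, adjusted p = 0.0856), both FPKM scales (adjusted p = 0.329 and 0.321) and the fit without sh-KIF11 replicate 2 (-0.16, adjusted p = 0.121). SULT1A1 held 87.1% ± 0.207 of SULT1A counts in sh-ctrl against 86.9% ± 0.552 in sh-KIF11, a difference smaller than the spread between libraries.

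SULT1A3 and SULT1A4 are near-identical copies on chromosome 16 that sulfate dopamine and other catecholamines. Windows shared with each other or with another SULT1A gene made up 96.5% of the SULT1A3 transcript and 99.0% of the SULT1A4 transcript, so reads could hardly be assigned between them. SULT1A4 had 55, 51 and 60 counts in sh-ctrl against 41, 42 and 47 counts in sh-KIF11. The groups did not overlap, but the log2 fold change of -0.55 ± 0.22 (adjusted p = 0.0254) lost its call in 6 of 15 other settings, among them without sh-ctrl replicate 3 (adjusted p = 0.103), without sh-KIF11 replicate 1 (adjusted p = 0.0671) and without sh-KIF11 replicate 2 (adjusted p = 0.0774). SULT1A3 had 25, 38 and 34 counts in sh-ctrl against 18, 45 and 18 counts in sh-KIF11. The groups overlapped (log2 fold change -0.46 ± 0.31, adjusted p = 0.179), the fall passed without sh-KIF11 replicate 2 (-1.02, adjusted p = 0.0108), and on the log2(FPKM + 0.1) scale the sign was positive (0.47).

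SULT1C4, described mainly as a fetal enzyme, showed the largest rise of any tested member, from a low level. It had 14, 10 and 10 counts in sh-ctrl against 98, 114 and 109 counts in sh-KIF11. The groups were far apart, at 0.644 ± 0.124 CPM and 5.30 ± 0.365 CPM (SD, n = 3), with a log2 fold change of 3.03 ± 0.25 (adjusted p = 5.52e-14). SULT1E1, the estrogen sulfotransferase, had 16, 10 and 18 counts in sh-ctrl against 44, 33 and 34 counts in sh-KIF11. It was higher in every knockdown library, by 1.13 ± 0.31 on the log2 scale (adjusted p = 0.00154). SULT1C4 and SULT1E1 both entered the test through their sh-KIF11 counts. With at least 10 counts in every library required, which both genes met, the log2 fold changes were 3.05 and 1.16. SULT1C2 had 31, 21 and 31 counts in sh-ctrl against 43, 39 and 35 counts in sh-KIF11, and its log2 fold change of 0.30 ± 0.27 did not pass the test (adjusted p = 0.325). SULT2B1, a cholesterol sulfotransferase, was not tested and had 5, 0 and 1 counts in sh-ctrl against 8, 15 and 6 in sh-KIF11. SULT1B1, SULT1C3, SULT4A1 and SULT6B1 had at most 6 counts in any library. Of 8 tested SULT genes 2 rose, 4 fell and 2 did not pass the test, with a median log2 fold change of -0.26. The shares were 25.0% higher and 50% lower, where 34.4% of all tested genes were higher and 34.7% lower.

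Per length, GSTO1 and SULT2A1 led their families in both groups, whereas the leading UGT gene differed. After GSTO1 came GSTK1 at 35.1 ± 1.83 FPKM in sh-ctrl against 37.5 ± 1.87 FPKM in sh-KIF11 (SD, n = 3), then GSTA4 at 17.2 ± 2.72 and 22.5 ± 0.190 FPKM. Among UGT genes, UGT2A3 led in sh-ctrl with 30.5 ± 3.85 FPKM, ahead of UGT2B10 with 23.3 ± 1.34 and UGT1A1 with 15.8 ± 0.330 FPKM. In sh-KIF11 this order was different, with UGT1A1 at 30.5 ± 0.676 FPKM above UGT2A3 at 22.2 ± 1.06 and UGT2B10 at 18.6 ± 0.555 FPKM, although the common exons make the UGT1A1 level uncertain. SULT2A1 led the sulfotransferases with 75.0 ± 9.27 FPKM in sh-ctrl against 52.0 ± 1.90 FPKM in sh-KIF11, followed by SULT1A1 with 42.7 ± 0.580 and 39.0 ± 0.558 FPKM.

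Genes that supply the donors of the conjugation reactions were examined next, as a list of 19 genes, of which 7 were higher (36.8%), 9 lower (47.4%) and 3 not past the threshold (median log2 fold change -0.06). For this and the other lists, the background was 34.4% higher and 34.7% lower among all tested genes. PAPSS2, a synthase of PAPS, had 1.57, 1.72 and 1.95 CPM in sh-ctrl against 7.47, 7.48 and 6.39 CPM in sh-KIF11. It rose in every knockdown library (log2 fold change 2.03 ± 0.19, adjusted p = 1.05e-12), while its more abundant paralog PAPSS1 fell from 108 ± 10.3 to 89.5 ± 3.07 CPM (SD, n = 3), a log2 fold change of -0.27 ± 0.06 (adjusted p = 7.51e-05) that library totals alone reduced to -0.04 (adjusted p = 0.531) and that limma on both FPKM scales did not call (-0.07, adjusted p = 0.352 and 0.348). GCLM, the modifier subunit of the enzyme that limits glutathione synthesis, had 36.8, 38.1 and 38.5 CPM in sh-ctrl against 99.5, 104 and 114 CPM in sh-KIF11. The groups were far apart (log2 fold change 1.49 ± 0.06, adjusted p = 6.79e-24), and the catalytic subunit GCLC rose as well, from 115 ± 14.1 to 159 ± 6.63 CPM (log2 fold change 0.47 ± 0.06, adjusted p = 5e-09). MAT1A, the adult-liver enzyme that makes S-adenosylmethionine, fell from 342 ± 5.02 to 156 ± 2.66 CPM (log2 fold change -1.13 ± 0.05, adjusted p = 2.13e-23). UGDH, which makes UDP-glucuronic acid, had 482, 461 and 529 CPM in sh-ctrl against 499, 536 and 533 CPM in sh-KIF11. Its groups overlapped and the log2 fold change of 0.09 ± 0.05 did not pass the threshold (adjusted p = 0.110), but it passed as higher in 6 of 15 other settings. These were upper-quartile factors (0.17, adjusted p = 0.00325), library totals alone (0.32, adjusted p = 3.53e-07), at least 10 counts in every library (0.12, adjusted p = 0.0379), limma on both FPKM scales (0.25, adjusted p = 0.00137 and 0.00125) and the fit without sh-ctrl replicate 3 (0.15, adjusted p = 0.00128).

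Transporters that move conjugates out of the cell and enzymes that break them down were counted as separate lists. Of 10 tested conjugate transporters 7 were higher and 0 were lower by edgeR, with 0 falls at an unadjusted p under 0.05 and 0 by DESeq2 or by limma on FPKM (median log2 fold change 0.22). ABCC3, a basolateral exporter of glucuronides, had 90.5, 87.3 and 85.3 CPM in sh-ctrl against 189, 205 and 201 CPM in sh-KIF11. It rose in all knockdown libraries (log2 fold change 1.18 ± 0.05, adjusted p = 6.46e-23), as did ABCC1, an exporter of glutathione conjugates, from 141 ± 8.79 to 312 ± 1.999 CPM (1.14 ± 0.05, adjusted p = 9.42e-23). ABCC2, the canalicular exporter of bilirubin glucuronides, rose from 560 ± 6.22 to 850 ± 18.3 CPM (SD, n = 3), a log2 fold change of 0.60 ± 0.05 (adjusted p = 6.98e-15). Of 12 deconjugating enzymes and their partners, 2 were higher (16.7%), 5 lower (41.7%) and 5 not past the threshold. GGT5, which cleaves glutathione conjugates such as leukotriene C, had 14, 7 and 8 counts in sh-ctrl against 138, 122 and 148 counts in sh-KIF11. The rise was large from a low level (log2 fold change 3.60 ± 0.25, adjusted p = 2.22e-16), and GGT5 entered the test only through its sh-KIF11 counts. DPEP1 and ANPEP, peptidases that act after gamma-glutamyl transfer, fell, DPEP1 from 89.3 ± 5.97 to 16.4 ± 2.32 CPM (log2 fold change -2.44 ± 0.08, adjusted p = 1.18e-27) and ANPEP from 321 ± 22.4 to 171 ± 8.12 CPM (-0.91 ± 0.05, adjusted p = 7.18e-19).

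**Figure D5:**
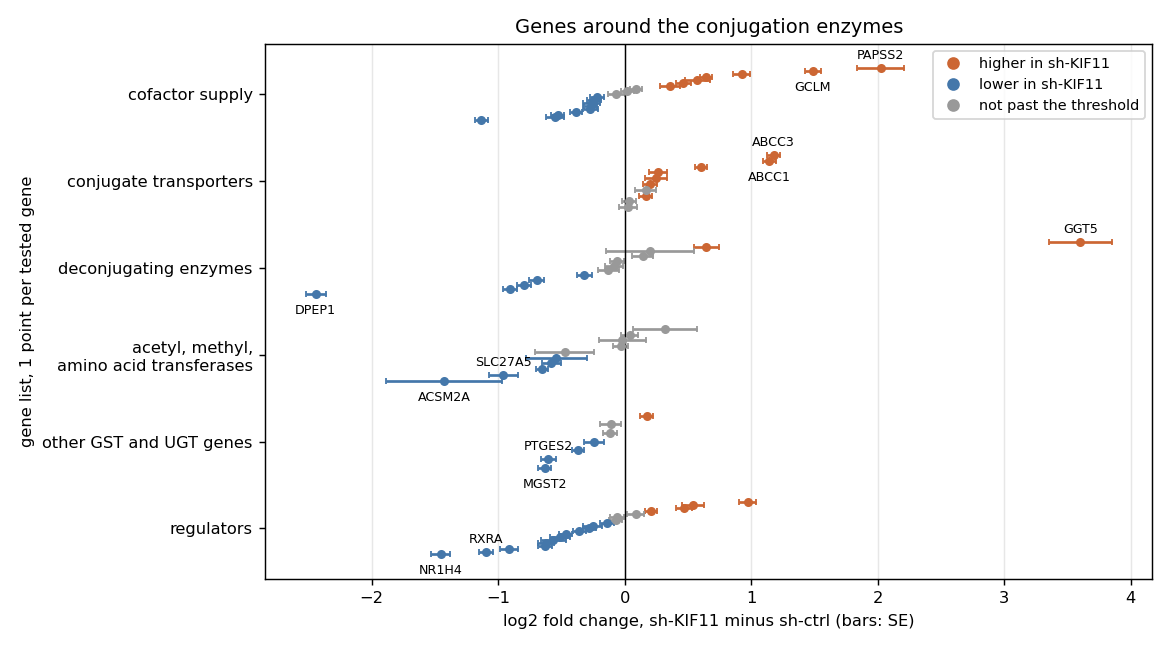
Log2 fold change, sh-KIF11 minus sh-ctrl, of every tested gene in 6 lists around the conjugation enzymes, with bars for the SE and colour for the call. The transporter points lie above 0, while the transferases for acetyl, methyl and amino acid groups called by the test lie below it.

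Other conjugating enzymes and related genes were mostly lower where the test made a call. Of 10 tested transferases for acetyl, methyl and amino acid groups, 5 were lower and 5 not past the threshold, and 0 were higher by edgeR, by DESeq2 or at an unadjusted p under 0.05, against 2 by limma on FPKM (median log2 fold change -0.51). Genes that fell included ACSM2A, a medium-chain acyl-CoA synthetase that had 20, 23 and 7 counts in sh-ctrl against 11, 5 and 5 in sh-KIF11 (log2 fold change -1.43 ± 0.46, adjusted p = 0.00582), and the bile acid-CoA ligase SLC27A5 (13.9 ± 0.803 to 7.13 ± 0.584 CPM, -0.96 ± 0.11, adjusted p = 9.27e-10). The ACSM2A groups overlapped, and its call was lost without sh-ctrl replicate 2 (-1.14, adjusted p = 0.0604) and with limma on both FPKM scales (-0.06, adjusted p = 0.227, and -0.43, adjusted p = 0.119). Its copy ACSM2B lies beside it, so its counts are uncertain. A further list held other GST and UGT genes outside the rule, such as the microsomal GSTs, and related genes that are not all conjugating enzymes. Of its 7 tested genes, 1 was higher (14.3%), 4 were lower (57.1%) and 2 not past the threshold. MGST2 fell from 184 ± 11.4 to 119 ± 3.69 CPM (log2 fold change -0.63 ± 0.05, adjusted p = 5.19e-14), the prostaglandin E synthase PTGES2 from 103 ± 8.35 to 67.6 ± 2.32 CPM (-0.60 ± 0.06, adjusted p = 4.74e-12) and the GST-fold chloride channel protein CLIC1 from 589 ± 12.2 to 456 ± 16.7 CPM (-0.37 ± 0.05, adjusted p = 6.42e-09).

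Of 19 tested transcriptional regulators of these genes, 4 were higher (21.1%), 12 lower (63.2%) and 3 not past the threshold (median log2 fold change -0.28). AHR, the ligand-activated receptor for planar aromatic compounds, had 47.8, 43.0 and 48.1 CPM in sh-ctrl against 63.5, 64.1 and 64.3 CPM in sh-KIF11. It rose in every knockdown library (log2 fold change 0.47 ± 0.06, adjusted p = 2.71e-08), as did NR1I2 (15.2 ± 1.07 to 22.2 ± 0.360 CPM, 0.54 ± 0.09, adjusted p = 8.24e-07), the glucocorticoid receptor NR3C1 (32.7 ± 1.25 to 64.1 ± 3.86 CPM, 0.97 ± 0.07, adjusted p = 3.87e-16) and NFE2L2 (259 ± 2.11 to 299 ± 11.9 CPM, 0.21 ± 0.05, adjusted p = 0.000252). The bile acid receptor NR1H4 fell from 74.5 ± 8.39 to 27.2 ± 1.30 CPM (-1.45 ± 0.07, adjusted p = 7.57e-21), and RXRA, the partner of many nuclear receptors, from 105 ± 4.44 to 49.4 ± 2.11 CPM (-1.09 ± 0.06, adjusted p = 2.76e-20). HNF4A fell from 321 ± 13.8 to 232 ± 4.05 CPM (-0.47 ± 0.05, adjusted p = 3.43e-11). The constitutive androstane receptor NR1I3 had at most 5 counts in any library and was not tested.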

How the data were processed

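The series holds mRNA sequencing of HepG2 cells with a control shRNA or an shRNA against KIF11, 3 libraries each. Per gene, the authors deposited unnormalized read counts and, in another table, FPKM values scaled by transcript length and depth. The submitters' processing notes name bcl2fastq 1.8.4, Trimmomatic, HISAT2 2.1.0, Cufflinks 2.2.1, HTSeq 0.9.1, DESeq and the builds GRCh38 and hg38, without roles or order. Paired reads of 150 bases came from a stranded library kit. Whether counting used strand, and how reads matching several genes were treated, is not given in the sources used here, so copies and overlapping or antisense genes are uncertain. On the same strand, UGT2B7 overlaps AC111000.2, SULT1A1 overlaps AC020765.5 and SULT1E1 overlaps AC108941.2 in the annotation, besides the overlaps given above. Knockdown columns are named only as shRNA and were taken as sh-KIF11, since the labels list no other. Gene ontology and pathway columns were not used.

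The count table was tested with edgeR 4.0.16 in R 4.3.3 (filterByExpr, TMM factors, quasi-likelihood test with group as the only term). Benjamini-Hochberg adjustment covered all tested genes, with a threshold of 0.05. Depth was 18167773 to 19583282 counts per library, and floors of 3 counts cover counting error only. The members and all lists were chosen with earlier results of these data known. Members that passed the filter were described singly where the adjusted p was under 0.05 with a log2 fold change of at least 1 in size, or where a group mean reached 10 CPM, and more briefly otherwise. Untested members were named with their counts where a library had 10 or more. From each list the 3 largest called changes were named, and also UGDH, PAPSS1, PAPSS2, GCLC, GCLM, NFE2L2, HNF4A, NR1I2, NR1I3 and AHR; some genes that this rule names are not reported here. The markers checked were lists for hepatocytes, cholangiocytes, immune cells, fibroblasts and endothelial cells, and the markers given singly were chosen after their values were seen. Alternatives were other size factors, other count filters, DESeq2 1.42.0, limma 3.58.1 on log2(FPKM + 1) and log2(FPKM + 0.1), the replicate number as a block, and each library left out in turn. For the lists these were added after the data were seen. The edgeR, DESeq2 and limma steps were tested on simulated data. Only a small part of the genes changed there, in both directions, so the simulation does not test the choice of scaling. Gene positions and transcripts were taken from GENCODE release 29 (GRCh38), and upstream sequences from RefSeq (GRCh38.p14). Alignment of upstream windows used Biopython 1.88 (global mode).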

Additional observations from a re-analysis of the deposited data

How the results depend on the processing

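With library totals alone, the median of all genes tested was 0.23 (log2) and 73.6% of calls were higher, against 0.00 and 49.8% with TMM, and members split into 13 higher and 6 lower against 10 and 12. On the FPKM scales 68.5% and 68.6% of calls were higher, with 12 members higher and 10 lower. GST genes lower numbered 2 with library totals. UGT genes higher numbered 4 with library totals and on both FPKM scales. SULT genes lower numbered 2 with upper-quartile factors and 1 with library totals. Under library totals GSTK1 reversed to 0.165 and SULT1A2 to 0.00357. For the lists, cofactor genes lower numbered 4 with library totals and on both FPKM scales. The acetyl, methyl and amino acid list had 3 higher with library totals, and 2 higher and 3 lower on both FPKM scales. Deconjugating enzymes higher numbered 4 with library totals and 1 with at least 10 counts in every library. Regulators higher numbered 7 with library totals and on both FPKM scales. Other GST, UGT and related genes higher numbered 2 without a count filter. Over the fits that each lacked 1 library they numbered 0 to 1, the 0 being without sh-ctrl replicate 1. The cause of these shifts was not tested. Of the 29 tested members, 17 stayed on the same side of the threshold in all settings and 12 changed side or sign of a call in at least 1. Directions of the 10 class sums held under every scaling, with FPKM sums and without each library, but their sizes moved. As log2 ratios, library totals gave 0.69 for GSTA, -0.25 for GSTM, 0.59 for GSTT, -0.29 for other GST, 0.75 for UGT1A, -0.38 for UGT2A, -0.0454 for UGT2B, -0.0543 for SULT1A, 1.79 for other SULT1 and -0.46 for SULT2, and FPKM sums gave 0.63, -0.29, 0.98, -0.43, 0.71 and -0.46 for the first 6, -0.13 for SULT1A, 1.82 for other SULT1 and -0.52 for SULT2. Upper-quartile factors gave -0.40 for GSTM, -0.44 for other GST and -0.21 for SULT1A. The family sums, an addition made after the data were seen, were -0.0751 for GST, -0.0188 for UGT and -0.17 for SULT with library totals and -0.24, 0.11 and -0.32 in FPKM, so the UGT sum reversed there. Upper-quartile factors left -0.23 for GST and -0.32 for SULT. Same-numbered libraries of the groups did not deviate together (correlations 0.0338, -0.0257 and 0.00200), and 1 of 6 libraries correlated best with its own number. The values thus showed no pairing by number, but they cannot exclude that same-numbered libraries were prepared together. The replicate block gave 10 members higher and 12 lower, as without it. Genes with under 20 counts in a library, such as GSTT2B, SULT1C4, SULT1E1 and UGT1A9, rest on few reads.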
